A study of Homo sapiens with 3 samples.

Results

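Homeobox genes encode transcription factors that bind DNA through a homeodomain and set regional and cell identity in the embryo. The 56 genes described here lie outside the HOX clusters and were taken from a fixed list of names, out of 19866 protein-coding genes of the annotation. They were chosen with earlier results of these data known, and fall into 19 families. A region of ARID1B enrichment was assigned to a gene when it lay within 1000 bp of either annotated gene end, when it lay inside the gene, or when the gene was the nearest protein-coding gene by distance to a gene end. By this rule 26 of 2291 regions were assigned to 14 of the 56 genes, and 42 genes had none. The membership of each gene in its family was taken from general knowledge and was not checked against protein sequence.

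ARID1B belongs to BAF, a SWI/SNF complex that uses ATP to slide or evict nucleosomes at enhancers and promoters, and carries a domain that contacts DNA. Among the homeobox genes, the TALE families (MEIS, PBX, PKNOX, TGIF and IRX) include partners of HOX proteins on DNA. LIM homeobox genes (LHX, LMX and ISL) specify neurons and limb and organ territories, and the family of SIX2 and SIX3 acts in eye, muscle and kidney development. DLX, EMX, EN, MSX, OTX and PITX genes pattern the head, brain and limbs. The CUX and SATB genes and the zinc-finger homeobox genes ZEB and ZFHX encode large regulators, several of which are known as repressors.

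ARID1B was located by chromatin immunoprecipitation followed by sequencing (ChIP-seq) in HEK293FRT cells, which derive from HEK293, a line made from human embryonic kidney, with no treatment and no genotype change given in the labels. The series held 2 ARID1B ChIP replicates and 1 input sample. Each replicate has its own peak list, with 1792 peaks in replicate 1 and 1820 in replicate 2, whereas for the input no values were analysed here. Nothing in the labels tells if separate cultures were used for them, so agreement between them may be technical. Sequencing depth is unknown because the lists hold no read counts. Each peak carries a whole-number score from the authors, whose scale is not given in the sources used here, so it was turned into a percentile, the share of peaks of the same list that score no higher. Peaks of the replicates that overlapped by at least 1 bp were joined into 1 region. A region with peaks of both lists is called shared. All positions are on the human build hg38, counted from 1.

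No ARID1B region lay within 1000 bp of an end of any of the 56 homeobox genes, in either replicate. Among all protein-coding genes 1.89% had such a region, and 1.05% had a shared one. A count of 0 of 56 genes allows a share of up to 5.36%, so it cannot be told apart from that of all genes. The same was seen at annotated transcription starts. RefSeq promoter windows, which run from 250 bases before to 50 bases after a start, were at hand for 42 of the 56 genes, with 75 windows in all. None of the 75 overlapped a region, against 233 of 22199 windows of all protein-coding genes (1.05%), and 0 of 75 allows up to 4%. The windows of the homeobox genes had a median GC content of 65.7% and a median of 27 CpG dinucleotides, against 62.3% and 21 over all protein-coding windows. The 233 windows that did overlap a region had medians of 63.7% and 25. Windows of 1 gene often lie close together and share sequence, so these are descriptions.

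Among the 42 homeobox genes with a promoter window, which do not include DLX4, the region nearest to an annotated start was assigned to PITX3, a gene of midbrain dopamine neurons and of the lens, at chr10:102230189-102241512. It lay at chr10:102245263-102245526, 3.75 kb upstream of the PITX3 start, and was found in replicate 2 only, with a score of 100. The same region lay inside GBF1, which encodes an activator of small GTPases in the Golgi. The annotated end of GBF1 was 14.6 kb away, so PITX3 was nearest by gene end, and the rule gave the region to both genes. It overlapped a RefSeq promoter window of GBF1 by 245 of 300 bases, and ended 6 bp before that start. The windows below are shown because they are the one that the region covers and, among those 42 genes, the starts that came closest to a region. They are from RefSeq, build GRCh38.p14, written 5′ to 3′ along the gene's strand, with the dinucleotide CG in capitals (it reads the same on both strands, and 98.0% of protein-coding windows hold at least 1).
GBF1, chr10:102245282-102245581, plus strand: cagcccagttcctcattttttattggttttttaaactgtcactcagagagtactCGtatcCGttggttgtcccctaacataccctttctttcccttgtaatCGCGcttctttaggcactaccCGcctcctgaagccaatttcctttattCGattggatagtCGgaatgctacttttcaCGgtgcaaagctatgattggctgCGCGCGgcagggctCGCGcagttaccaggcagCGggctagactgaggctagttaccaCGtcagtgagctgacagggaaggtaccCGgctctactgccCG
PITX3, chr10:102241463-102241762, minus strand: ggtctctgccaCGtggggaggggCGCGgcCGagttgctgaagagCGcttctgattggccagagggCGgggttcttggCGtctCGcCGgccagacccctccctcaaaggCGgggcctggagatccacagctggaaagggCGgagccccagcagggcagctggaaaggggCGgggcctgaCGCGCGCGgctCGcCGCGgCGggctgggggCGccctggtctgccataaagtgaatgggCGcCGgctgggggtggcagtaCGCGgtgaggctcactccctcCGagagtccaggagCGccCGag
PBX3, chr9:125747933-125748232, plus strand: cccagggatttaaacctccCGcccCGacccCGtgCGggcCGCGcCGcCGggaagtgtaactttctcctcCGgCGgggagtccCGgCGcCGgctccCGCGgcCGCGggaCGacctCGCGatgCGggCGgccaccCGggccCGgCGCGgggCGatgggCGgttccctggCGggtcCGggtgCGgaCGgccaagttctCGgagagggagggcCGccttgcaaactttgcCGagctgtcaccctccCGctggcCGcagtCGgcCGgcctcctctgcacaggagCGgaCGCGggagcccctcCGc
The covered GBF1 window had a GC content of 51.3% and 17 CpG. The windows of PITX3 (71.7%, 28 CpG) and PBX3 (76%, 43 CpG), which lay 3.75 and 3.99 kb from a region, were richer in both.

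The 26 regions of the homeobox genes, those inside a gene included, were mostly far from the gene ends. Of these, 11 lay more than 100 kb from the nearer end of their gene and 8 lay between 50 and 100 kb from it. The median distance was 82.4 kb, against 43.7 kb from the nearest gene end over all 2290 regions on annotated chromosomes. Over the 1987 regions that lay more than 1000 bp from every gene end it was 58.3 kb. Inside a homeobox gene lay 10 regions, at 4 genes. The other 16 lay outside, at 11 genes. The closest to a gene end was that of DLX4, just beyond the 1000 bp window at 1.37 kb, followed by PITX3 at 3.75 kb and PBX3 at 4.80 kb. All 3 were found in 1 replicate only. The shared region closest to a gene end lay 11.7 kb from OTX2.

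**Figure D1:**
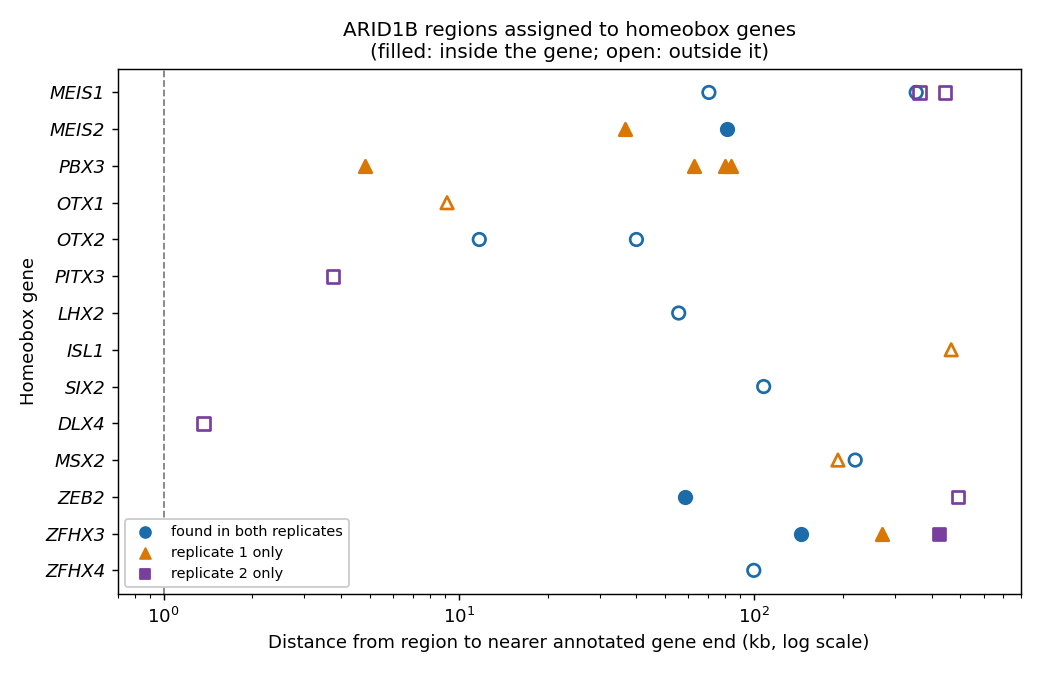
Distance in kb (log scale) from each of the 26 ARID1B regions to the nearer end of the homeobox gene it was assigned to, for the 14 genes with a region. Circles are shared regions and triangles and squares those of replicate 1 or replicate 2 only, filled symbols lie inside the gene, and the dashed line marks 1 kb, which no region reaches.

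Of the 26 regions, 11 were shared (42.3%, exact Clopper-Pearson 95% interval 23.4 to 63.1), 9 were found in replicate 1 only and 6 in replicate 2 only. Over all 2290 regions 57.3% were shared, and over the 1987 that lay more than 1000 bp from every gene end 57.8%. Both values fall within the interval, which covers counting error only. Without the 4 regions of PBX3, left out after their values were seen, 11 of 22 were shared (50%). Regions in 1 gene are not independent of each other.

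In all, 14 of 56 homeobox genes had a region (25%, exact 95% interval 14.4 to 38.4), against 8.44% of all protein-coding genes, and 9 of 56 had a shared one (16.1%, 7.62 to 28.3), against 5.36%. The next shares leave out regions within 1000 bp of an end of the gene. Inside the gene, 4 of 56 had a region (7.14%) against 3.56% of all genes, and 3 of 56 had a shared one (5.36%) against 2.25%. Outside the gene, with it as nearest, 11 of 56 had a region (19.6%) against 3.75%. A gene with distant neighbours is the nearest gene over a longer stretch, and the homeobox genes have such stretches: the median span over which a gene was nearest was 168 kb, against 57.6 kb over all protein-coding genes. Per Mb of this span the homeobox genes held 1.43 regions, against 0.759 over all genes. For shared regions the values were 0.605 per Mb against 0.435. The 18.2 Mb of the 56 genes would hold 13.8 regions at the rate of all genes, where 26 were found, and 7.91 shared regions, where 11 were found. The 26 became 11 among peaks at or above the median score of their list, 17 without replicate 1, and 13 where the nearest gene could be of any biotype. In that last setting 3 of the 56 genes had a shared region (5.36%), against 3.66% of all protein-coding genes. These differences were not tested, and the 56 genes were chosen with earlier results of these data known.

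Other homeobox genes, in a list of 90 from the POU, paired-like, NKX-like, HNF, ONECUT and PROX, and HOX-like groups, had a region at 4 members (4.44%, exact 95% interval 1.22 to 10.99), and a shared one at the same 4. Among all protein-coding genes the shares were 8.44% and 5.36%, both within that interval. Their span held 0.764 regions and 0.51 shared regions per Mb. By group, the NKX-like genes held 1.87 regions per Mb (7 regions) and the HOX-like genes 2.33 (3 regions). The paired-like genes held 0.488 (2 regions), and the POU genes and the HNF, ONECUT and PROX genes 0. The 4 genes with a region were HLX, a gene of gut and liver development, with 6 regions, MEOX1, a somite gene, with 3, SHOX2, a limb and heart gene, with 2, and NKX2-3, a gut and spleen gene, with 1. None of the 90 had a region at a gene end, which allows up to 3.33%, against 1.89% of all protein-coding genes. None of 14 POU genes had a region at all, which allows up to 21.4%, against 8.44%. Neither share of genes can be told apart from that of all genes. At the rate of all genes the POU span would hold 4.15 regions. The list leaves out genes of the PAX9 and NKX2-1 locus, which was already known to hold regions, so it is not a count over all other homeobox genes.

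**Figure D2:**
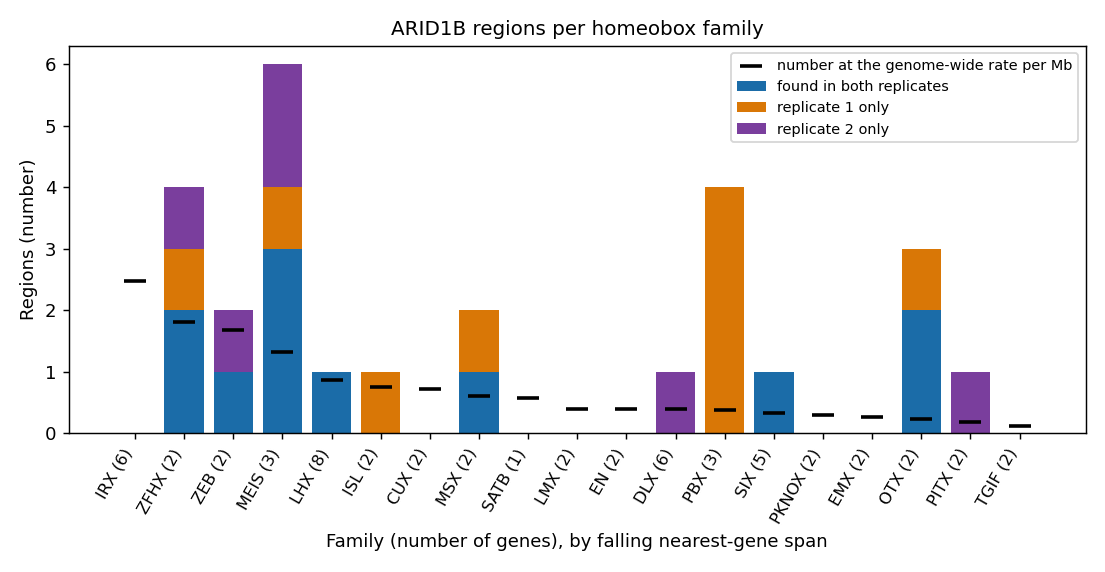
Number of ARID1B regions assigned to each of the 19 homeobox families, stacked by shared, replicate 1 only and replicate 2 only, with families ordered by the length of genome over which their genes are nearest. Black marks give the number that length would hold at the rate of all protein-coding genes. MEIS has 6 regions where 1.33 are due, PBX 4 where 0.374 are due and OTX 3 where 0.239 are due. IRX has 0 where 2.48 are due, and a count of 0 allows up to 3.

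Among the TALE genes, the MEIS family stood first by number with 6 regions, 3 of them shared. At the rate of all genes its span would hold 1.33 regions. The span of the PBX family would hold 0.374, where 4 were found, and that of the OTX family 0.239, where 3 were found. MEIS1, a HOX cofactor of limb, heart and blood stem cells at chr2:66435125-66573869, had 4 regions, all upstream of its start. The one at chr2:66080154-66080528 scored 165 in replicate 1 and 185 in replicate 2, percentiles of 85.4 and 87.0, and lay 355 kb from the gene. It was the only region of the 56 genes at or above percentile 75 in both lists, where 327 of 1312 shared regions (24.9%) stood. The long non-coding RNA gene LINC02934 contained it. That gene also held 2 regions of replicate 2 only, 364 and 443 kb from MEIS1, with scores of 64 and 33. The other shared region, at chr2:66364451-66364740, lay 70.4 kb from MEIS1 with scores of 72 and 58. For all 4 the next gene was SPRED2, 559 to 932 kb away.

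MEIS2, a relative of MEIS1 that acts in forebrain, heart and limb, had 2 regions inside the gene (chr15:36889204-37101311). The shared one at chr15:36970555-36970918 scored 149 and 73, percentiles of 82.3 and 49.6, and lay 61.6% of the way along the gene from its start. The other was found in replicate 1 only, with a score of 85. MEIS3 had no region, and the closest, nearest to BICRA, lay 226 kb away.

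PBX3, a partner of MEIS and HOX proteins at chr9:125747373-125967377, had 4 regions inside the gene, all of them from replicate 1 only. Their scores were 30, 35, 56 and 116. The highest, at chr9:125904365-125904798, stood at percentile 73.2. Of 188 replicate 1 peaks within 5 percentile points of it, 87.8% were found in both replicates. The lowest had like-scoring peaks of which 50.3% were shared. No replicate 2 peak lay within 850 kb of any of the 4. PBX2 and PBX4 had none; the closest region to PBX2, a shared one at the ends of AGPAT1 and RNF5 with scores of 30 and 131, was 6.27 kb away.

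The remaining TALE families had no region. PKNOX1 and PKNOX2 encode cofactors like MEIS, and TGIF1 and TGIF2 encode repressors of TGF-beta signalling. The 6 IRX genes, which pattern brain, heart and limb, form a cluster of 3 on chromosome 5 and one of 3 on chromosome 16. They were nearest over 2.06 and 1.20 Mb. Together this was the longest span of the 19 families, and it held 0 regions where 2.48 would fall at the rate of all genes. A count of 0 allows up to 3 regions, so it cannot be told apart from that rate. The shared region closest to an IRX gene lay inside FTO, at chr16:54059294-54059722, with scores of 149 and 114. It was 224 kb from IRX3, 871 kb from IRX5 and 1264 kb from IRX6. FTO encodes an RNA demethylase, and its introns are known from other studies to hold regulatory sequence of IRX3. Whether the region overlaps any of that sequence was not tested. On chromosome 5 the closest region to IRX4 and IRX2 was found in replicate 2 only, with a score of 30. It lay 561 kb from IRX4 and 1419 kb from IRX2. The closest region to IRX1 lay 1670 kb away, inside ADAMTS16.

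Of the LIM genes, 2 of 12 had a region. LHX2, a gene of forebrain, eye and hair follicle at chr9:124011768-124033301, had a shared region at chr9:124088914-124089196, 55.6 kb beyond its end. Its scores were 93 and 100, percentiles of 62.5 and 67.0, which made it second among the 11 shared regions by the lower of both percentiles. ISL1, a gene of motor neurons and heart progenitors, had a region of replicate 1 only, 466 kb away, with a score of 23. LHX1, LHX3, LHX4, LHX5, LHX6, LHX8, LHX9, LMX1A, LMX1B and ISL2 had none. Among these, LMX1B had the closest region at 53.8 kb (replicate 2 only, score 15) and LMX1A the farthest at 1809 kb. The 8 LHX genes were nearest over 1.15 Mb, where 0.872 regions would fall at the rate of all genes and 1 was found.

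Among the 5 genes SIX2 to SIX6, SIX2, which keeps kidney progenitors undifferentiated, had the only region. It was shared, at chr2:45117363-45117722, 108 kb upstream of the start, with scores of 83 and 118 (percentiles 57.5 and 74.0). It lay inside the RNA gene LOC107985809 or within 1000 bp of its end. SIX3, the neighbour of SIX2 and a gene of forebrain and eye, was 171 kb from the same region. SIX4, SIX5 and SIX6 had none, with the closest regions at 50.1, 226 and 137 kb.

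OTX2, a gene of forebrain and retina at chr14:56799905-56810479, had 2 shared regions on opposite sides of the gene. One lay 11.7 kb upstream, inside the antisense gene OTX2-AS1 or within 1000 bp of its end, with scores of 65 and 46. The other lay 40.0 kb beyond the far end, with scores of 110 and 53. The percentiles of the second were 70.9 and 30.5, the widest gap between the replicates among the 11 shared regions. OTX1 had 1 region of replicate 1 only, 9.13 kb from the gene, with a score of 75, and the nearest replicate 2 peak was 1578 kb off. PITX1, a hindlimb and pituitary gene, had none within 656 kb.

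Of the 12 DLX, EMX, EN and MSX genes, DLX4 and MSX2 had a region. That of DLX4, at chr17:49976327-49976626, was found in replicate 2 only, with a score of 123 (percentile 74.7), and lay between DLX4 and DLX3, 1.37 and 13.4 kb from their ends. Of 178 replicate 2 peaks within 5 percentile points, 91.6% were shared. MSX2, a gene of skull and limb development, had a shared region 220 kb upstream, inside LINC01411 or within 1000 bp of its end. Its scores were 10 and 39. The first is the lowest score of the replicate 1 list. A second region, of replicate 1 only, 193 kb upstream, also scored 10. DLX1, DLX2, DLX3, DLX5, DLX6, EMX1, EMX2, EN1, EN2 and MSX1 had none, and the closest region to EMX2 was 2763 kb away.

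The zinc-finger homeobox genes had 6 regions, 3 of them shared. ZEB2, a repressor of epithelial genes and a regulator of neural crest at chr2:144384081-144520119, had a shared region inside the gene at chr2:144461170-144461497. It scored 158 and 83, percentiles of 84.4 and 57.5, and lay 58.6 kb from the start. A replicate 2 region with a score of 73 lay 492 kb upstream, inside the RNA genes TEX41 and LOC100505498 or within 1000 bp of their ends. ZEB1, a paralogue of ZEB2 with a similar role, had none; its closest region was 1660 kb away.

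ZFHX3, a large regulator gene of neurons and of the circadian clock, had 3 regions along its 1109 kb. The shared one at chr16:72927635-72928025 scored 67 and 53. One of replicate 1 only scored 49 and lay 4.12 kb from a RefSeq start inside the gene, and one of replicate 2 only scored 46. ZFHX4 had 1 shared region outside the gene, 99.9 kb away, at chr8:76581102-76581353, with scores of 66 and 46.

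**Figure D3:**
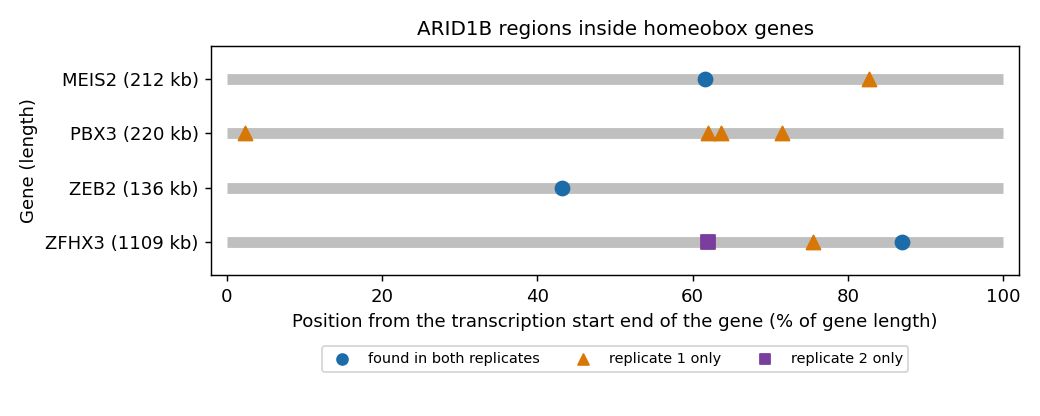
Position of the 10 ARID1B regions that lay inside a homeobox gene, as percent of gene length from the transcription start end; circles are shared regions, triangles replicate 1 only and squares replicate 2 only. The 3 shared regions lie 43.2% along ZEB2, 61.6% along MEIS2 and 86.9% along ZFHX3, and the 4 of PBX3 are all from replicate 1.

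All 4 homeobox genes with a region inside, which here means over 1000 bp from the gene ends, were over 100 kb long. Of the 12 homeobox genes over 100 kb, 4 had one (33.3%, exact 95% interval 9.92 to 65.1), against 14.6% of 3355 protein-coding genes of that length, and of the 44 shorter ones 0 had one, against 1.31% of 16511 shorter protein-coding genes. Long genes without a region inside were CUX1 (468 kb), CUX2 (316 kb), PKNOX2 (269 kb), ZEB1 (211 kb), ZFHX4 (186 kb), LMX1A (155 kb), MEIS1 (139 kb) and SATB1 (100.2 kb). CUX1 and CUX2, genes of cortical neurons and growth control, had no region closer than 1229 and 3306 kb. SATB1, a chromatin organiser of T cells, had none closer than 615 kb. The 42 genes with no region had a median distance of 629 kb to the closest one, from 6.27 to 3306 kb.

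By rank within their lists, peaks of the homeobox genes stood slightly below the middle. The median percentile was 47.7 over 20 peaks of replicate 1 and 41.9 over 17 of replicate 2. Among the 11 shared regions the median of the lower percentile was 34.6, against 49.6 over all 1312. In 7 of the 11 the percentile was higher in replicate 1, against 49.9% of all shared regions (exact 95% interval for 7 of 11, 30.8 to 89.1). The median width was 290 bp, from 192 to 444 bp, against 305 bp over all regions. Inside a long non-coding RNA gene or within 1000 bp of its end lay 9 of the 26 (34.6%, exact 95% interval 17.2 to 55.7), against 22.01% of all regions. All 9 were among the 16 regions outside the homeobox genes, 3 of them at LINC02934.

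**Figure D4:**
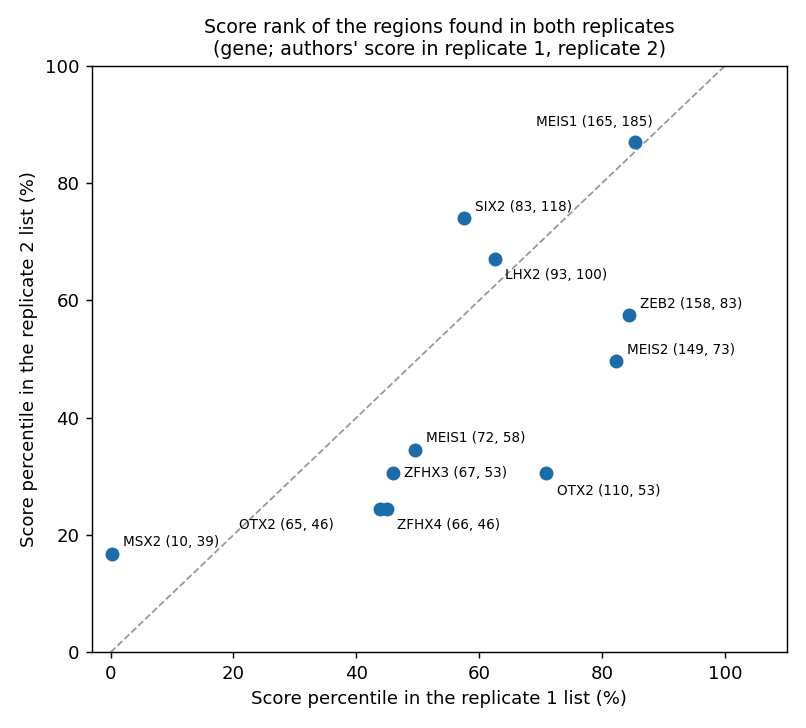
Score percentile of the 11 shared regions of homeobox genes in the replicate 1 list and the replicate 2 list, labelled with the gene and the authors' score in replicate 1 and replicate 2; the dashed line marks equal percentiles. The MEIS1 region at 85.4 and 87.0 is the only one at or above percentile 75 in both lists, and 7 of the 11 lie below the line, higher in replicate 1.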

How the data were processed

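The submitters' processing notes name build hg38 and, without their roles, MACS2 2.1.2, bcl2fastq 2.20.0.422 and Bowtie2 2.3.4.1. For the settings, peak threshold, duplicate handling, antibody and use of the input, nothing is stated in those sources. The authors deposited 1 peak list per replicate, with a score per peak of unstated scale, which was used only for ranks within a list. Kept PCR duplicates would raise scores.

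Genes came from RefSeq (GRCh38.p14): 58961 genes were kept, and 718 on sequences outside the main chromosomes were left out. A gene end is either annotated end. Alternative starts were read only from RefSeq promoter windows. Nearest-gene spans run to midpoints between neighbouring gene ends, with assembly gaps kept in. With 2 replicates of 1 condition and no contrast, no significance test was made. Shares carry exact Clopper-Pearson 95% intervals, and a count of 0 a limit of 3 counts; both cover counting error only. In each family the genes with most shared regions, those reached at an end and the 5 best-ranked shared regions were to be described in full, and all genes with a region could be named. The genes and lists were chosen with earlier results of these data known. Joining and assignment were tested on simulated peaks. Python 3.11.15, scipy 1.17.1.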

Additional observations from a re-analysis of the deposited data

How the results depend on the processing

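The counts were recomputed with stricter sharing (50% reciprocal overlap, or centres within 200 bp), windows of 500 and 5000 bp, chromosomes 1 to 22 and X alone, nearest genes by gene body or within 100 kb, higher-scoring peaks alone and each replicate alone. Among peaks at or above the median score of their list, 4 homeobox genes had a shared region (7.14%, against 2.76% of all protein-coding genes), and 11 regions were assigned, of 1161 in all. With the nearest gene taken from all annotated genes, a choice added after the data were seen, 3 genes had a shared region (5.36%, against 3.66% of all protein-coding genes), 13 regions were assigned, of 1493 that any protein-coding gene received, 23.1% of the 13 were shared, and the median percentile was 51.3, against 46.0 as reported over the peaks of both lists. This setting gives regions near RNA genes to those genes. Within 5000 bp of an end, 3 homeobox genes had a region (DLX4, PITX3 and PBX3; 5.36%, against 3.10% of all protein-coding genes) where 0 had one within 1000 bp. Each replicate alone gave 17 to 20 regions at 11 to 12 genes (19.6% with replicate 2, against 7.19% of all protein-coding genes, and 21.4% with replicate 1, against 6.69%), with median percentiles of 41.9 to 47.7 and 0 genes at an end. No share found in both could be had from 1 replicate. The remaining settings left each value within 1.5 times, its interval or the spread between replicates. No paired analysis was possible because the 2 lists are replicates of 1 group and the input has no peak list here. Depth is unknown, so a region missing from a list may lie below its threshold.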
